A study of Mus musculus with 8 samples.

Results

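Lipid-handling and scavenger genes of macrophages were followed in lungs of mice with an inducible transgene for the inflammatory cytokine interleukin-1b (IL-1b). The set holds 10 genes, Gpnmb, Trem2, Spp1, Lpl, Cd36, Msr1, Cd68, Fabp5, Apoe and Cd63, out of 27200 genes with a symbol on the array. They were found by their symbol in the deposited annotation, which gave them 19 of 43681 probe sets. That match used no measured value, but the members were chosen with earlier results of these data known. The arrays came from whole lungs of BALB/c mice that all carried the IL-1b transgene, 3 from water-treated controls and 5 from animals treated with doxycycline (dox), which induces the transgene. Treatment lasted 7 days and the animals were about 12 weeks old per the labels, while the header of a deposited table gives 5 weeks. Every group carried the transgene, and dox-treated mice without it were not analysed here, so the drug and the cytokine cannot be told apart. What drives the transgene, and whether each array is 1 animal, are not given in the sources used here, so p-values cover only the spread among these arrays, which may be technical. The surfactant protein gene Sftpc, which marks lung epithelium, was at 25427 to 26107 units on all 8 arrays. The number of arrays limits the precision.

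Macrophages take up lipoproteins, surfactant and dead cells through scavenger receptors such as Msr1 and Cd36, and break them down in lysosomes, where Cd68, Cd63 and Gpnmb reside. Trem2 binds lipids and lipoproteins, Apoe among them, and signals through the adaptor Tyrobp. Lpl, Fabp5 and Apoe split, carry and export lipid, and Spp1 (osteopontin) is secreted. Together these genes are known from the lipid-laden macrophages of fat, artery wall, brain and injured lung. Several are not restricted to macrophages: capillary endothelium carries Cd36, fat and muscle make Lpl, and most cells hold Cd63.

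The promoters of 4 of the 5 genes that rose are shown beside that of Gpnmb, whose brightest probe set did not pass the test, so that their letters can be set side by side. They are from RefSeq, build GRCm38.p6, whose promoter table matched 7 of the 10 genes; Lpl, Msr1 and Fabp5 had no entry. Each run is the 250 bases before the gene's most upstream listed start, read 5′ to 3′ on the gene's own strand. Capitals mark a match, on either strand, to the PU.1 box GAGGAA, the AP-1 site TGANTCA, the kB site (GGGA, any base, TT, any base, CC) or the E-box CACGTG of the MiT/TFE lysosome factors.
Trem2, chr17:48346151-48346400, plus strand: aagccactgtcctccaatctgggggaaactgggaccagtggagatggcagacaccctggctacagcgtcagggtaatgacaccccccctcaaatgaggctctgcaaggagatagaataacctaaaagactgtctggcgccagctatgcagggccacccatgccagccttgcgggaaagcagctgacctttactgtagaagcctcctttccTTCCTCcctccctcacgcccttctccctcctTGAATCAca
Spp1, chr5:104434861-104435110, plus strand: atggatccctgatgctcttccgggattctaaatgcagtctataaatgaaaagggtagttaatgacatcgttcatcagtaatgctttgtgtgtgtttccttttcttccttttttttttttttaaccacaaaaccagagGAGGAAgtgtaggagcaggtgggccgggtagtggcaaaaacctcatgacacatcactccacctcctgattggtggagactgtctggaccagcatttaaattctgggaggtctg
Cd68, chr11:69666171-69666420, minus strand: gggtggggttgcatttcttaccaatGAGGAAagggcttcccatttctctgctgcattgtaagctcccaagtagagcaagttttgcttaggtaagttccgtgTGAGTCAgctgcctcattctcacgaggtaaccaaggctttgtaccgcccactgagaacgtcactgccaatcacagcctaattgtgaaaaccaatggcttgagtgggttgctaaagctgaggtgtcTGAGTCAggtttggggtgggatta
Apoe, chr7:19699189-19699438, minus strand: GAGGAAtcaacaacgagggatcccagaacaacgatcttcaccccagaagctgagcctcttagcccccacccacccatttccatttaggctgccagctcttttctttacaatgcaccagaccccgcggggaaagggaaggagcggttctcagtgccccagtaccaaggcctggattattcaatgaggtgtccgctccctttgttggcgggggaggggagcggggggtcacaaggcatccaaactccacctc
Gpnmb, chr6:49036268-49036517, plus strand: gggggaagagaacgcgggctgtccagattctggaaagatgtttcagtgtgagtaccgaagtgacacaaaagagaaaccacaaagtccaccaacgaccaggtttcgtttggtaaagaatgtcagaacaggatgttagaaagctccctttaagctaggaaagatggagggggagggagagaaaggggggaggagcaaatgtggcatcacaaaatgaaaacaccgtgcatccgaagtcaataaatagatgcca
PU.1 is a master factor of the myeloid lineage, and AP-1 and NF-kB act downstream of the IL-1 receptor. The PU.1 box stood in 5 of the 7 windows (Trem2, Spp1, Cd68, Apoe and Cd63), against 23.3% of the 32851 windows of this length in the table. That share counts every listed start, whereas each of the 7 genes enters with its most upstream start only. Spp1 has 2 listed starts and Apoe 3, and the window of the second start held no PU.1 box in either. Cd63, which did not pass and is not printed, held 2 PU.1 boxes, and Gpnmb and Cd36 held none. An AP-1 site stood in Trem2 and, with 2 copies, in Cd68, against 6.75% of windows. None of the 7 windows held the kB site (0.98% of all windows) or the E-box (6.02%). These matches describe letters in this window, and no 2 marked matches overlap in the 5 runs printed.

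Of the 10 genes, 5 rose in dox, 0 fell and 5 did not pass (limma, Benjamini-Hochberg adjusted over all 27200 genes, threshold 0.05). By the same test 3.48% of all genes rose and 1.52% fell. Since the members were chosen with earlier results known, such shares are a background and not a test of the set. The median log2 change of the 10 was 0.38, and that of all genes was -0.03. The 5 were the receptors Msr1 and Trem2, the secreted protein Spp1, the lysosomal glycoprotein Cd68 and the apolipoprotein Apoe, with folds from 1.36 to 3.06. All dox arrays lay above all water arrays for 7 genes, against 7.25% of all genes, and below them for 1, Cd36, against 6.96%. The lipolytic enzyme Lpl and the brightest Gpnmb probe set overlapped between the groups. Intensities are in linear arbitrary units. A change is the dox mean minus the water mean in log2, given with the standard error (SE) from limma. Means are geometric, and SDs are on the log2 scale. A summed level adds the linear intensities of a list's genes, so its brightest genes weigh most. In whole lung, more cells of a type and more RNA per cell cannot be told apart.

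**Figure D1:**
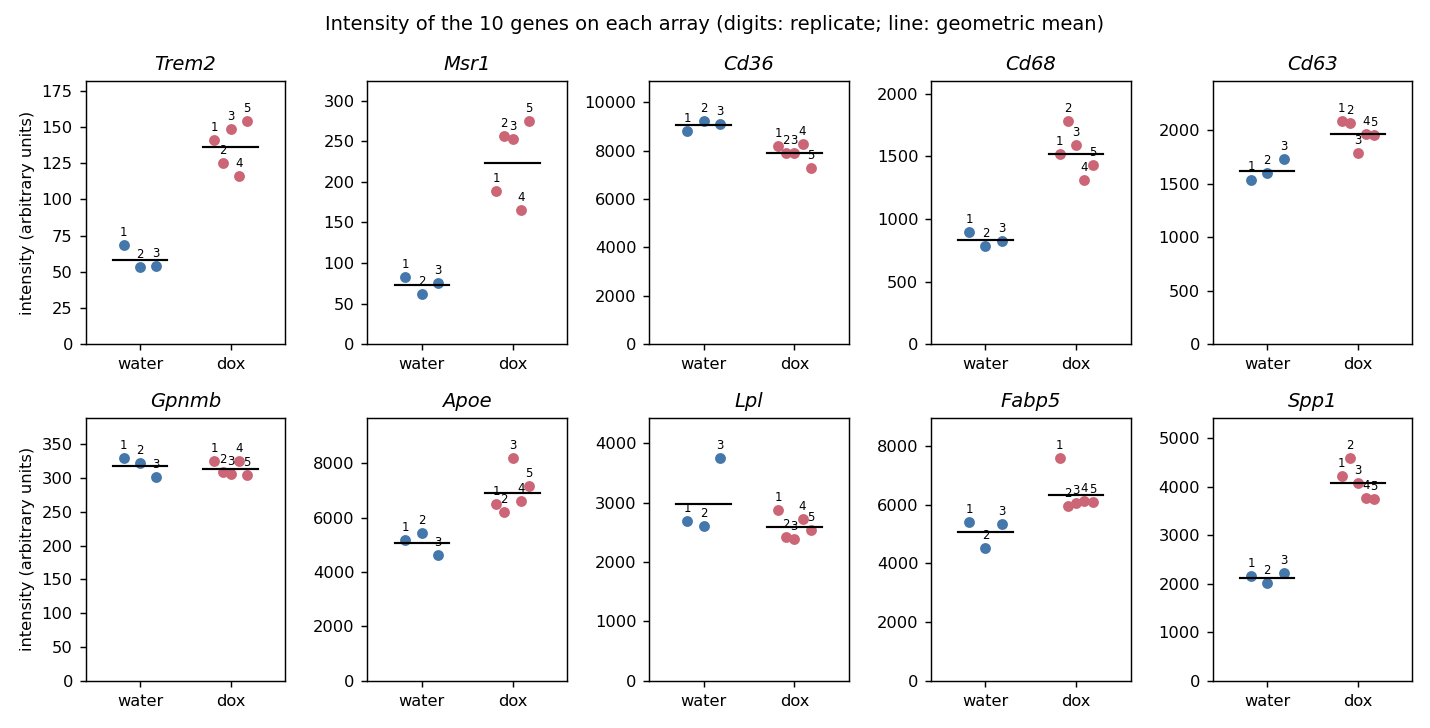
Intensity (vertical axes, arbitrary units from 0) of the probe set that represents each of the 10 genes on 3 water and 5 dox arrays; digits give the replicate and lines the geometric mean. Trem2, Msr1, Cd68, Spp1, Apoe, Fabp5 and Cd63 have every dox point above every water point, Cd36 has every dox point below, and Gpnmb and Lpl overlap.

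Msr1, the class A scavenger receptor that binds modified lipoproteins and microbial surfaces, changed most. Its representative probe set read 83.0, 61.9 and 75.6 units in water 1 to 3, and 188, 257, 252, 165 and 275 in dox 1 to 5. The groups stood well apart, and dox 1 and dox 4 were the lower of the dox arrays. The mean went from 73.0 to 223 (SD 0.22, n = 3, and 0.32, n = 5), a rise of 3.06-fold (1.61 ± 0.17 SE, limma adjusted p = 0.000324). A second Msr1 probe set read 38.9 to 46.1 in water and 71.3 to 90.4 in dox, and rose by 0.92 ± 0.09 SE (adjusted p over all probe sets = 0.000325). Both probe sets moved the same way, but the first gave the larger change.

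Trem2, the lipid-sensing receptor, was the other receptor that rose. It read 68.8, 53.1 and 53.8 units in water 1 to 3. It read 141, 125, 148, 116 and 154 in dox 1 to 5. Every dox value exceeded the highest water value, that of water 1, by a wide margin, and dox 4 was the lowest of the dox arrays. The log2 change was 1.23 ± 0.12 SE, or 2.35-fold (limma adjusted p = 0.00015; SD 0.21 in water and 0.17 in dox). Trem2 sits on myeloid cells, and its single probe set lay above the array median on all 8 arrays (medians 40.8 to 41.9).

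Cd36, the class B scavenger receptor and fatty acid transporter, did not pass. Its brighter probe set read 8805, 9215 and 9107 units in water 1 to 3, and 8192, 7913, 7904, 8279 and 7264 in dox 1 to 5. All dox values were lower, by a small amount: the log2 change was -0.19 ± 0.065 SE (95% interval -0.34 to -0.05, limma unadjusted p = 0.0126, adjusted p = 0.128). The second Cd36 probe set also lay lower on every dox array (2438 to 2469 against 2113 to 2251) with a log2 change of -0.17 ± 0.06 SE (adjusted p over all probe sets = 0.181). Beside it, capillary endothelial markers had a median log2 change of -0.28, with 1 of 10 fallen and a summed level of 23623 to 27330 in water and 19775 to 23169 in dox; their part in the Cd36 values was not tested.

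Cd68, a heavily glycosylated protein of macrophage lysosomes and endosomes, rose by 0.87 ± 0.10 SE (1.82-fold, limma adjusted p = 0.000539). Water 1 to 3 read 895, 782 and 825 units, and dox 1 to 5 read 1517, 1780, 1588, 1311 and 1432. The lowest dox array, again dox 4, was still far above the highest water array. Cd63, a tetraspanin of late endosomes and lysosomes found in most cells, read 1539, 1595 and 1730 in water 1 to 3 and 2084, 2071, 1785, 1962 and 1955 in dox 1 to 5. Its groups did not overlap, with water 3 and dox 3 closest to each other. Its log2 change was 0.28 ± 0.07 SE (95% interval 0.12 to 0.44) and narrowly did not pass (limma adjusted p = 0.0547); it passed without dox 3 (0.0413).

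Gpnmb, a transmembrane glycoprotein of lysosomes and melanosomes, was measured by 5 probe sets that disagreed. The brightest, AK190718_x_at, read 330, 322 and 301 units in water 1 to 3 and 325, 309, 306, 325 and 304 in dox 1 to 5. The 2 groups covered the same range, and the log2 change was -0.02 ± 0.06 SE (95% interval -0.16 to 0.12, limma adjusted p = 0.917). The probe set AK171517_a_at read 55.2, 58.5 and 62.6 in water 1 to 3 and 86.8, 74.8, 72.3, 89.7 and 98.0 in dox 1 to 5. There every dox array was higher, and it rose by 0.51 ± 0.10 SE (adjusted p over all probe sets = 0.0231). That call was lost without water 1, water 2, dox 1 or dox 4 (adjusted p up to 0.0902). The probe set AK189253_x_at, at 24.1 to 26.5 in water and 28.9 to 33.2 in dox, did not overlap between the groups either, but it did not pass (0.26 ± 0.08 SE, adjusted p = 0.112). The probe set of the RefSeq transcript, NM_053110_at, was dim and alike in both groups (24.4 to 25.2 and 23.7 to 27.2; 0.02 ± 0.07 SE), and AK190327_a_at lay below the arrays' lower quartile on 6 of 8 arrays. In Affymetrix-style names, a probe set marked x can bind transcripts of other genes, and 2 of the 5 carry that mark, the brightest included. Which of the 5 reads the Gpnmb transcript best was not tested, so no single direction is given for the gene.

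**Figure D2:**
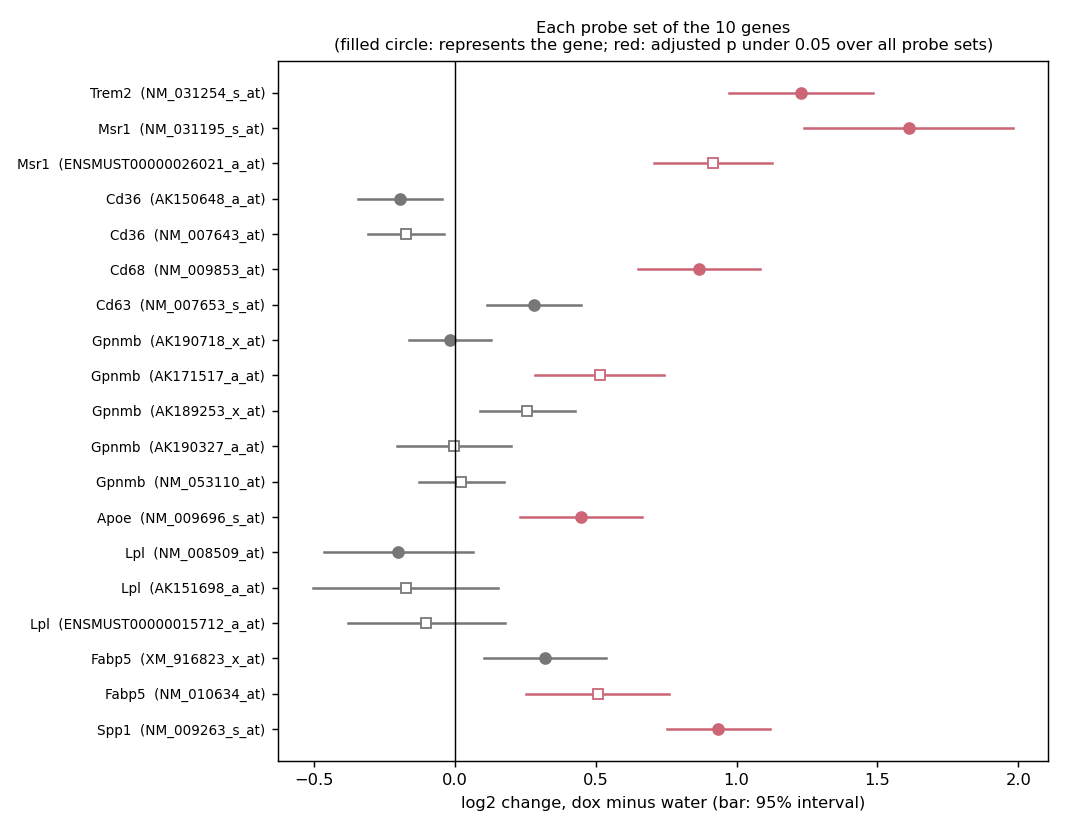
Log2 change of dox minus water (horizontal axis) with its 95% interval for each of the 19 probe sets of the 10 genes; filled circles represent the gene, open squares are further probe sets, and red marks an adjusted p under 0.05 over all 43681 probe sets. The 5 Gpnmb probe sets run from -0.02 to 0.51, whereas the 3 of Lpl and the 2 each of Cd36, Msr1 and Fabp5 lie on the same side of 0.

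Read one by one, 8 of the 19 probe sets rose, 0 fell and 11 did not pass, where 2.31% of all probe sets rose and 0.790% fell. No overlap was seen upward for 11 of them (6.04% of all probe sets) and downward for the 2 of Cd36 (6.12%). The 8 belong to 7 genes, since Gpnmb and Fabp5 join the 5 named above through a dimmer probe set. Of the 19, 15 lay above the array median on every array. The probe sets of Trem2, Spp1, Apoe and Cd63 and the brighter one of Msr1 carry another mark, s. Whether they bind transcripts of other genes was not tested.

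Apoe, the lipoprotein ligand that carries cholesterol out of macrophages, was at 5164, 5430 and 4615 units in water 1 to 3 and at 6518, 6211, 8196, 6599 and 7152 in dox 1 to 5. Its groups did not overlap, and dox 3 was the highest. It rose by 0.45 ± 0.10 SE, or 1.36-fold (limma adjusted p = 0.0247). The call was lost without water 1, water 3 or dox 5 (adjusted p up to 0.0974).

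Lpl, which frees fatty acids from triglyceride-rich lipoproteins, did not pass. Its brightest probe set read 2684, 2603 and 3750 units in water 1 to 3 and 2870, 2421, 2392, 2727 and 2536 in dox 1 to 5. Water 3 stood above all other arrays, and water 1 and water 2 fell among the dox values. The log2 change was -0.20 ± 0.12 SE (95% interval -0.47 to 0.06, limma adjusted p = 0.411) and only -0.03 without water 3. The other 2 Lpl probe sets gave -0.10 and -0.18, also with water 3 highest (2158 and 830), and turned to 0.07 and 0.03 without water 3. Fat and heart muscle, which both make Lpl, were read through their markers: summed adipocyte markers were 1516 to 1936 in water and 538 to 1747 in dox, and summed cardiac markers 8779 to 11186 and 4697 to 12137. The cardiac sum was highest of the water arrays on water 3 (11186), where Lpl was highest too, and the adipocyte sum was not. On dox 4 the cardiac sum was higher still (12137), but Lpl read 2727 there. The part of fat and heart muscle in the Lpl values was not tested.

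Fabp5, an intracellular carrier of fatty acids, was measured by 2 probe sets. The brighter, marked x, read 5416, 4526 and 5331 units in water 1 to 3 and 7587, 5936, 6059, 6125 and 6100 in dox 1 to 5. All dox values were higher, and dox 1 stood above the other 4. The log2 change was 0.32 ± 0.10 SE (95% interval 0.10 to 0.53) and did not pass (limma adjusted p = 0.0959). The probe set NM_010634_at read 260, 204 and 247 in water 1 to 3 and 410, 299, 309, 317 and 348 in dox 1 to 5, and rose by 0.51 ± 0.12 SE (adjusted p over all probe sets = 0.0409). That call was lost when any 1 of the 8 arrays was left out (0.053 to 0.148). Fatty acid binding proteins are a family of close relatives, and which of their transcripts the brighter probe set reads was not tested.

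Spp1, the secreted matrix and cytokine-like protein osteopontin, had the smallest SE of the 5 genes that rose. Water 1 to 3 read 2162, 2009 and 2215 units. Dox 1 to 5 read 4209, 4592, 4067, 3767 and 3747. The lowest dox value was well above the highest water value, and the rise was 1.91-fold (0.93 ± 0.08 SE, limma adjusted p = 7.86e-05). The SD was 0.07 in water and 0.12 in dox.

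The dox arrays did not rank alike for every gene. Among the 5 genes that rose, dox 4 was the lowest dox array for 3 (Msr1, Trem2 and Cd68) and the highest for 0. Dox 2 and dox 5 were each the highest for 2 and the lowest for 1. In water, water 2 was the lowest array for 4 of the 5. Dox 4 also had the lowest summed level of macrophage and monocyte markers among dox arrays (27982, with the others up to 31630) and of alveolar macrophage markers (25520, up to 30292). It had the highest adipocyte sum of the dox arrays (1747, down to 538) and the highest cardiac sum (12137). The brightest genes, which weigh most in these sums, were Lyz2, Ear2, Cfd and Actc1 in turn. Without dox 4 the log2 changes were 1.72 for Msr1, 1.29 for Trem2 and 0.92 for Cd68.

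Macrophage markers moved in the same direction as the genes that rose. Of 15 macrophage and monocyte markers, 12 rose and 0 fell, with a median of 1.04 and a summed level of 22378 to 22912 in water and 27982 to 31630 in dox. The largest were the endotoxin co-receptor Cd14 (2.40 ± 0.15 SE, from 231 to 1220 units) and the complement subunits C1qb (2.03 ± 0.13 SE) and C1qc (2.01 ± 0.145 SE). Lyz2, which did not pass, made up most of the macrophage and monocyte sum (mean 18872 units in water and 20489 in dox). Ear2, which did not pass either, was the brightest gene of the alveolar macrophage sum (mean 10508.5 and 12378 units). Of 11 alveolar macrophage markers measured, 7 rose and 0 fell (median 0.76, summed 19367 to 21207 in water and 25520 to 30292 in dox). They were led by the chitinase-like Chil3 (1.03), Plet1 (0.94) and the proton pump subunit Atp6v0d2 (0.83). Marco, Pparg and Atp6v0d2 of this list are counted again in lists given below. Of 12 neutrophil markers 6 rose (summed 2515 to 5093 and 5340 to 10392), with the collagenase Mmp8 at 2.35, the chemokine receptor Cxcr2 at 1.45 and the calprotectin subunit S100a9 at 1.38 (lost without 2 of the arrays, each left out in turn). The water mean of Cxcr2, 7.9 units, lay under the arrays' lower quartile (13.9 to 14.5), and the Cxcr2 change was 0.66 with a pseudocount of 16. No marker in these 3 lists had both group means under it, and the part of any of these cell types in the rises of Msr1, Trem2, Cd68, Spp1 and Apoe was not tested.

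Markers of structural cells, fat and heart muscle gave few calls. Of 8 alveolar type 2 cell markers 3 rose (summed 76969 to 80840 in water and 83067 to 86279 in dox): the surfactant protein Sftpd by 0.44, Lamp3 by 0.40 and the surfactant protein Sftpa1 by 0.37, the last lost without 7 of the arrays. Of 6 lipofibroblast markers 2 fell (summed 21056 to 25008 and 16406 to 20575), the lipase inhibitor G0s2 (-0.91) and Tcf21 (-0.44, lost without 6 of the arrays). Of 9 adipocyte markers 1 fell, Retn (-0.38, lost without 6), while Adipoq (-1.84) and Cfd (-1.45), chosen after their values were seen, had larger values that did not pass (limma adjusted p = 0.0639 and 0.0966). The fall among capillary markers was that of the endothelin receptor Ednrb (-0.57, lost without 5). Of 8 cardiac markers 0 passed in limma, and 1, Myl7, had an unadjusted p under 0.05 (-0.73 ± 0.30 SE, adjusted p = 0.216).

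**Figure D3:**
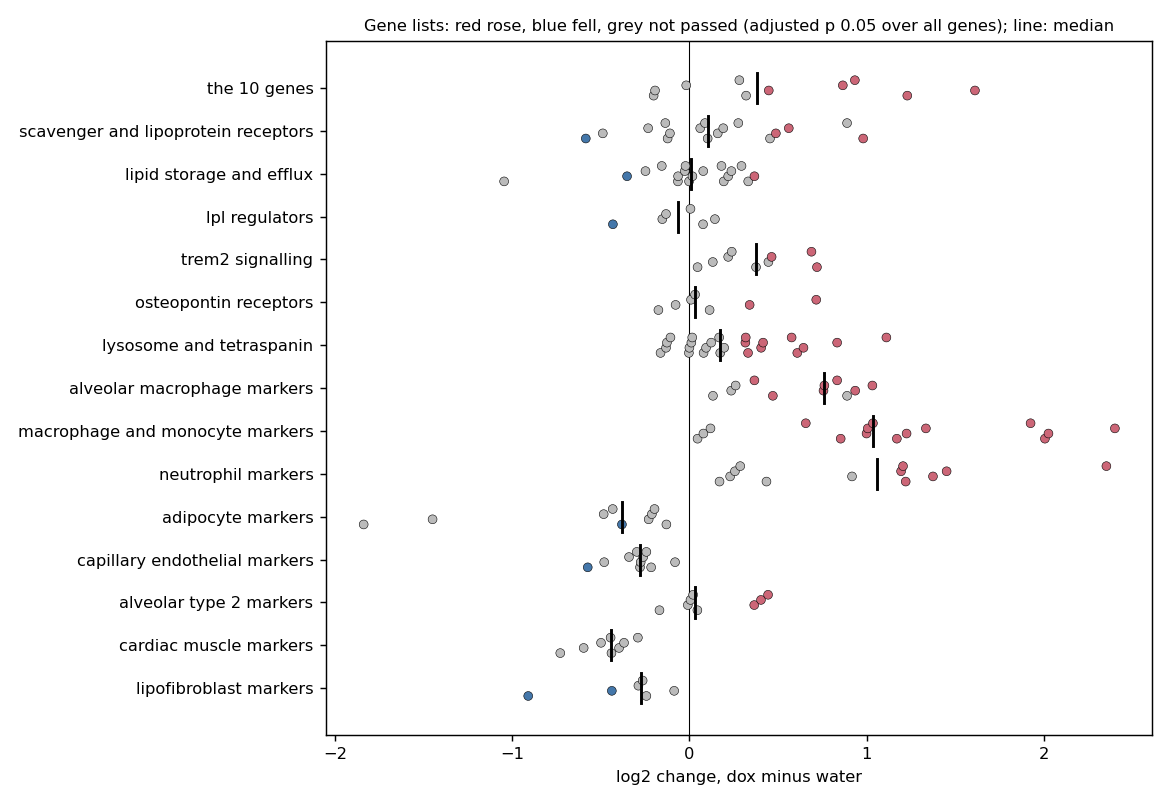
Log2 change of dox minus water (horizontal axis) for the 10 genes and for 14 context lists, 1 point per gene; red points rose, blue points fell, grey points did not pass, and black lines are medians. The medians are 0.38 for the 10 genes, 0.76 and 1.04 for the macrophage lists, and -0.38 and -0.44 for the adipocyte and cardiac lists.

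Of 17 other scavenger and lipoprotein receptors, 3 rose and 1 fell (median 0.10). The mannose receptor Mrc1 rose by 0.98 ± 0.08 SE (895 to 1767 units), Cxcl16, a chemokine that also binds oxidised lipoprotein, by 0.56 ± 0.07 SE, and the oxidised LDL receptor Olr1 by 0.49 ± 0.10 SE. Olr1 lost its call without 3 of the arrays, each left out in turn (adjusted p up to 0.0832). The very low density lipoprotein receptor Vldlr fell by 0.59 (SE 0.09, from 849 to 566 units, limma adjusted p = 0.00319). Chosen after its values were seen, Marco, the class A receptor of alveolar macrophages, read 63.5, 68.7 and 126 in water 1 to 3 and 103 to 226 in dox, and did not pass (0.89 ± 0.27 SE, limma adjusted p = 0.0917).

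Of 18 genes of lipid storage and cholesterol efflux, 1 rose and 1 fell, with a median of 0.01; the number called ran from 1 to 5 over the alternatives. The lipid-sensing nuclear receptor Pparg, which governs the alveolar macrophage programme, rose by 0.37 ± 0.07 SE (115 to 148 units), and the monoglyceride lipase Mgll fell by 0.35 (SE 0.09; lost without 6 of the arrays, adjusted p up to 0.142). Chosen after their values were seen, the cholesterol exporters Abcg1 (0.24 ± 0.06 SE, limma adjusted p = 0.0534) and Abca1 (0.18 ± 0.12 SE, 0.462) and the lipid droplet protein Plin2 (0.22 ± 0.07 SE, 0.101) did not pass. Fabp4, likewise chosen, did not pass either (-1.05 ± 0.33 SE, limma adjusted p = 0.109). The same holds for Nr1h3, the oxysterol receptor LXR alpha that drives Apoe and Abca1 (-0.02 ± 0.07 SE, limma adjusted p = 0.902), and for the lysosomal lipase Lipa (-0.03 ± 0.07 SE, 0.881). Of the 6 partners and regulators of Lpl 0 rose and 1 fell, Gpihbp1, which anchors Lpl on capillaries (-0.43 ± 0.11 SE, from 4006 to 2970 units, limma adjusted p = 0.0452; lost without 7 of the arrays, up to 0.147). Water 3 was the highest array for Gpihbp1 as well as for Lpl.

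Genes around Trem2 signalling, among them related receptors and proteases that shed it, moved with it in part. Of 9, 3 rose and 0 fell (median 0.38): the adaptor Tyrobp by 0.72 ± 0.13 SE (2379 to 3918 units), the kinase Syk by 0.69 ± 0.145 SE and the related receptor Trem1 by 0.46 ± 0.10 SE. These calls were lost without 2, 4 and 3 of the arrays, each left out in turn (limma adjusted p up to 0.0539, 0.0878 and 0.0971). Chosen after their values were seen, Adam10 and Adam17, which shed the Trem2 ectodomain, had changes of 0.13 and 0.22 and did not pass (limma adjusted p = 0.413 and 0.338). Of the 7 osteopontin receptors, 2 rose and 0 fell (median 0.03): Cd44 by 0.72 ± 0.09 SE (1798 to 2953 units) and the integrin subunit Itga9 by 0.34 ± 0.08 SE, lost without 7 of the arrays. Chosen after its values were seen, Itgav, a subunit of the integrins that bind osteopontin's RGD motif, had a change of 0.03 and did not pass (limma adjusted p = 0.839).

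Among 24 genes of lysosomes, their MiT/TFE regulators and tetraspanins, 10 rose and 0 fell (median 0.17). Of the tetraspanins, the family of Cd63, Cd53 rose (0.61 ± 0.13 SE, lost without 3 of the arrays). Cd9, Cd81, Cd82, Cd151 and Cd37 did not pass. These tetraspanins were named after their values were seen. The collagen-degrading cathepsin Ctsk rose by 1.11 ± 0.09 SE (374 to 809 units), Atp6v0d2 by 0.83 ± 0.11 SE and cathepsin Ctss by 0.64 ± 0.10 SE. Chosen after their values were seen, the MiT/TFE factors Mitf (0.20), Tfeb (0.00) and Tfe3 (0.01), which switch on lysosomal genes and Gpnmb, did not pass (limma adjusted p from 0.223 to 0.999), nor did the general lysosomal membrane proteins Lamp1 (0.08) and Lamp2 (0.17).

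To see whether a gene changed by the same amount as a relative or partner, the log2 difference between the 2 was taken within each array for 9 pairs and compared between the groups by an exact 2-sided permutation test. The pairs were chosen after the data were seen, and with 3 against 5 arrays the smallest p the test can give is 0.0357. That p was reached by 5 pairs, but after Benjamini-Hochberg adjustment over the 9 it became 0.0643, so none passed. With so few arrays, most of the 9 pairs would have to reach the smallest p for any to pass, so the adjusted values say little about any single pair. These differences compare log2 changes and not levels. Their SEs come from the pooled variance of the within-array differences and not from limma. The change of Trem2 exceeded that of its adaptor Tyrobp by 0.51 ± 0.13 SE. For Cd68 it exceeded that of its LAMP family relative Lamp1 by 0.79 ± 0.11 SE, and for Cd63 that of the tetraspanin Cd9 by 0.26 ± 0.04 SE. The change of Lpl, itself negative, lay above the more negative one of Gpihbp1 by 0.23 ± 0.06 SE. The change of Cd36 minus that of the class B receptor Scarb1 was -0.26 ± 0.09 SE. In these 5 pairs the within-array differences did not overlap between the groups. They overlapped for Msr1 against Marco (0.72 ± 0.37 SE, exact p = 0.107), Fabp5 against Fabp4 (1.36 ± 0.44 SE, exact p = 0.0714), Spp1 against Cd44 (0.22 ± 0.11 SE, exact p = 0.143) and Apoe against the neighbouring apolipoprotein gene Apoc1 (0.12 ± 0.14 SE, exact p = 0.464).

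**Figure D4:**
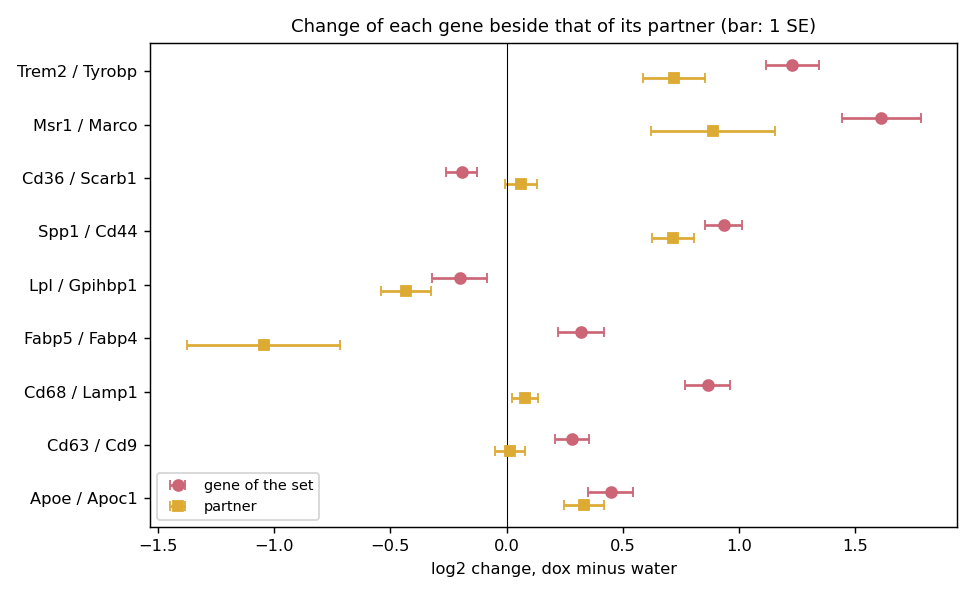
Log2 change of dox minus water (horizontal axis) for 9 of the genes (circles) and for a relative or partner of each (squares), with bars of 1 SE. Trem2 (1.23) lies above Tyrobp (0.72) and Cd68 (0.87) above Lamp1 (0.08), while Spp1 (0.93) and Cd44 (0.72) lie close together.

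Over the 8 arrays, the genes whose values followed each of the 10 most closely were named by Pearson's r, as a description. The arrays of both groups enter r, so a shared group difference raises it. Msr1 was followed by the Fc receptor Fcgr3, Incenp and Bcl2a1a (r from 0.992 to 0.993). Closest to Trem2 were Mcm5, Tnfaip8 and the inhibitory Fc receptor Fcgr2b (0.991 to 0.994). For Cd68 they were Rgs19, the C-type lectin Clec4n and Otulinl (0.994 to 0.996), and for Spp1 the thromboxane synthase Tbxas1, Cd302 and Kcnn3 (0.991 to 0.994). Apoe was followed by Lrch4, the amino acid transporter Slc7a7 and Cln3 (0.973 to 0.976), and Cd63 by Gkn3, Xpo1 and Herpud1 (0.977 to 0.993). Cd36 ran closest to Atp6v1c2 and Fgf1 (0.982 to 0.988) and Lpl to Echs1 and Naxd (0.977 to 0.986). Fabp5 ran with Serpind1, Fbp2 and Hmga1 (0.948 to 0.963), and the brightest Gpnmb probe set with F5, Ces1f and Gp5 (0.951 to 0.963). Bcl2a1a belongs to a family of near-identical copies, so its identity is uncertain.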

How the data were processed

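Total RNA from lung, 8 samples in all, became biotinylated cRNA, per the labels' protocols, and was read on a 1-colour array. The deposited values are linear intensities on which the authors ran RMA, per the submitters' processing notes; its version and detection calls are not given in the sources used here. As background, RMA equalises the arrays' distributions. The accession, symbol and probe set columns of the deposited text table, of another kind than the intensities, were joined by probe set; its 8 intensity columns match no sample label and were not used. Within a group r between arrays was 0.994 to 0.997, with no identical pair. Symbols were updated through RefSeq names (GRCm38.p6), and a gene's brightest probe set on average represented it.

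Log2 values were fitted with limma 3.58.1 in R 4.3.3 (lmFit, eBayes, 2-sided), adjusted by Benjamini-Hochberg over 27200 genes or 43681 probe sets. In 8 simulated arrays of dox against water with 200 of 27200 genes changed, 80% of genes changed 1.5-fold and 94% of those changed 2-fold were found. The permutation tests used scipy 1.17.1. The members and lists were chosen with earlier results of these data known. Named were all members, the 3 genes most like each over arrays and, per list, its 3 largest calls one way and the single largest the opposite way (with no call, the gene of smallest p). Others are said to be chosen after their values were seen. Sftpc and the brightest genes of the summed levels (Lyz2, Ear2, Cfd and Actc1) were chosen so too. For Cd36 and Lpl the third most like gene is not reported here. The promoter sequences run on the gene's strand: before starts on the minus strand, TATAAA was found in the usual place in 299 windows and its reverse complement in 89. Alternatives (normalization, pseudocount, filter, prior, weights, probe set choice, block, single arrays left out) are in the closing section.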

Additional observations from a re-analysis of the deposited data

Results flagged for a closer look

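Of 56 groups of 5 dox arrays examined, 2 held an array far from the other 4; about 1 in 20 groups is marked so by chance. The brighter Fabp5 probe set was at 7587 units on dox 1, with the next array at 6125. Mgll was at 815 units on dox 4, with the next array at 695.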

How the results depend on the processing

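The rises of Trem2, Msr1, Spp1 and Cd68 passed under all 17 alternatives run at the gene level, with log2 changes of 1.04 to 1.35, 1.26 to 1.72, 0.89 to 1.01 and 0.81 to 0.96. Apoe passed under 13 (0.38 to 0.50), not with the replicate block (adjusted p = 0.182). That block also ended the calls of Cxcr2 (0.058), Pparg (0.105), Sftpd (0.0757), Lamp3 (0.0605) and S100a9 (0.133). The calls of Syk, Trem1, Olr1, Itga9, Sftpa1, Gpihbp1, Mgll, Ednrb, Tcf21 and Retn were lost with it as well. The S100a9 call was lost with the trend and robust prior too. Lpl and the representative Gpnmb probe set passed under none. Cd63 (0.24 to 0.33) passed under 5 (dimmest 25% of genes removed, a pseudocount of 16, subtraction of array medians, the trend and robust prior, without dox 3), Fabp5 (0.24 to 0.41) under 1, the trend and robust prior, and Cd36 (-0.215 to -0.164) under 2, that prior and the pseudocount. The number of the 10 that rose ran from 4 to 6 when single arrays were left out, and was 4 with the replicate number as a block, 7 with the trend and robust prior and 7 with every probe set on its own. The change of Gpnmb, -0.02, turned to 0.15 with the mean of its probe sets (adjusted p = 0.177), to 0.006 with array medians subtracted (0.98) and, when single arrays were left out, ran from -0.056 to 0.01 (0.01 without water 1, 0.969). Over all genes 1359 passed. Leaving out single arrays gave 893 to 1290 (893 without water 2), and the replicate block gave 606, with fewer degrees of freedom since dox 4 and dox 5 have no partner. Same-numbered arrays did not deviate together (r = 0.007, 0.062 and -0.161), so the numbers were not taken to pair them. The context counts were less stable. Over the alternatives, lysosomal calls ran from 4 to 11, genes around Trem2 signalling from 0 to 4 and alveolar macrophage markers from 4 to 8. Macrophage and monocyte markers ran from 8 to 12, neutrophil markers from 2 to 8, and alveolar type 2 and adipocyte markers each from 0 to 4. Capillary markers ran from 0 to 3, lipofibroblast markers from 1 to 3 and cardiac markers from 0 to 1. Other scavenger receptors ran from 3 to 5, Lpl regulators from 0 to 1 and osteopontin receptors from 1 to 2. Every pair difference kept its sign when arrays were left out, with the mean of probe sets and with the pseudocount, but sizes moved: Msr1 minus Marco ran from 0.37 to 1.00, Spp1 minus Cd44 from 0.09 to 0.29 and Apoe minus Apoc1 from 0.03 to 0.17. Without detection calls, dim probe sets such as AK190327_a_at are not shown to exceed background.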

Other observations

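Adipoq and Fabp4 varied more among dox arrays (log2 SD 1.08 and 0.70) than any of the 10 genes did (up to 0.32). Adipoq, the fat cell hormone adiponectin, read 240, 262 and 187 units in water 1 to 3 and 63.0, 55.1, 46.5, 220 and 29.4 in dox 1 to 5, and did not pass (-1.84 ± 0.50 SE, limma adjusted p = 0.0639). Fabp4, the fatty acid binding protein of fat cells and of some macrophages and endothelium, read 261, 281 and 206 in water 1 to 3 and 126, 104, 71.4, 264 and 99.3 in dox 1 to 5 (-1.05 ± 0.33 SE, limma adjusted p = 0.109). Both were near the water level on dox 4 alone among the dox arrays. Lpl on dox 4, at 2727 units, lay within the range of the other dox arrays.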
